A study of Mus musculus with 15 samples.

Results

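The adipocyte lineage genes described here are 10 genes that mark the formation and the work of fat cells, measured in mouse embryonic fibroblasts (MEFs) by RNA microarray. They were chosen by name (*Pparg*, *Zfp423*, *Fabp4*, *Lpl*, *Cd36*, *Plin2*, *Scd1*, *Lipe*, *Adipoq* and *Cfd*), and a probe belonged to them when its accession was a RefSeq transcript of such a gene. This gave 16 of the 56605 probes of the array, with at least 1 probe for each of the 10 genes among the 23462 genes that could be named, and each gene is given by its probe with the highest mean signal. The cells were Balb/c 3T3 clone A31, an established line of 1 clone, cultured untreated (control) or with 10 ng/ml of TNFα, with 5 ng/ml of TGFß1, with 1 ng/ml of IL-1β, or with 20 ng/ml of IL-6 together with 25 ng/ml of its soluble receptor sIL-6Rα, and no genetic change is labelled in any group. Each of the 5 groups had 3 arrays. The labels give the culture time as 24 or 72 h without saying which array had which; per the methods, the RNA of the control, TNFα and TGFß1 cells was taken at 24 h, and the time of the other treated cells was not given in the sources used here. The study asked how inflammatory and fibrotic cytokines polarise fibroblasts, and the question put to these genes was how far each cytokine moved their transcripts away from the untreated state.

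Fibroblasts and fat cells share a mesenchymal origin, and some fibroblast lines can be turned into fat cells in culture. *Pparg* encodes PPARγ, the nuclear receptor without which fat cells do not form; with C/EBPα it switches on the genes for taking up, storing and releasing fatty acids. A fat cell cleaves circulating fat with lipoprotein lipase, carries fatty acids with binding proteins, packs them as triglyceride into droplets coated by perilipins, and secretes adipokines such as adiponectin. TNFα and TGFß are both known as inhibitors of fat cell formation.

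Sequences upstream of transcript starts are shown for the main regulator and for the 2 adipokines among the 10 genes. Of the 10 genes, 7 had an entry in the RefSeq promoter table (GRCm38.p6), with 11 windows in all; *Fabp4*, *Lpl* and *Scd1* had none. Each window is the 250 bases before a transcript start, read 5′ to 3′ on the strand of the gene. Capitals mark matches, on either strand, to AGGTCA (the core that nuclear receptors bind), TTGCNNAA (a core of the C/EBP motif) or TATAAA (the TATA box); the window of *Pparg* is the one before the third of its 3 listed starts and lies inside the gene, while the other 2 lie outside their genes.
Pparg, chr6:115421816-115422065, plus strand: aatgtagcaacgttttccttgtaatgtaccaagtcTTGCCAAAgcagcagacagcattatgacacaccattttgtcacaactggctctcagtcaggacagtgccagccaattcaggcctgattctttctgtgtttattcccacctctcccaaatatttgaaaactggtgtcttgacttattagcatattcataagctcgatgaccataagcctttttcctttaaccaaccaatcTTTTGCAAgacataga
Adipoq, chr16:23146286-23146535, plus strand: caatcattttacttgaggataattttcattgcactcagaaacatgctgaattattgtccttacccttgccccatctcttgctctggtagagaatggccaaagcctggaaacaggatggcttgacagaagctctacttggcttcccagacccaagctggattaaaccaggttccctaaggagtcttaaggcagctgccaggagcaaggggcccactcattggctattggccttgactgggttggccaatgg
Cfd, chr10:79890603-79890852, plus strand: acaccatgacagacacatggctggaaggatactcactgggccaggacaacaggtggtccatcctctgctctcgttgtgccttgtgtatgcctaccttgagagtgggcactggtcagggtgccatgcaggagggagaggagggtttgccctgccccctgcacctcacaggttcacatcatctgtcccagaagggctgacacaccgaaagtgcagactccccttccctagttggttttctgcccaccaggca

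The *Pparg* window held 2 matches to TTGCNNAA, which begin 215 and 16 bases before the start, the nearer of them on the opposite strand. The windows before the other 2 *Pparg* starts each held 1 AGGTCA, at 28 and 9 bases before the start, the second of them also a TATAAA at 29 bases, and the *Plin2* and *Cd36* windows held 1 each, at 218 and 228 bases. Of the 2 *Zfp423* windows one held TTGCNNAA at 131 bases and the other AGGTCA at 34 bases. The windows of *Adipoq*, *Cfd* and *Lipe* held no match to any of these motifs. Among all 32851 windows of this length, 14% held AGGTCA, 9.56% held TTGCNNAA and 12.4% held TATAAA. These matches are descriptions of letters, and the probe of *Pparg* does not tell which of its starts was used.

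Levels are log2 processed signals minus the 75th percentile of the same array, so that 0 is the 75th percentile and a step of 1 is a doubling; they compare groups for 1 probe and not 1 probe with another. Between 48.3% and 54.9% of probes per array were well above background, which is the flag of the scanner software, and no spot was saturated. Of the 10 genes, *Pparg*, *Fabp4*, *Lpl*, *Plin2*, *Scd1* and *Cfd* were well above background on all 15 arrays and *Adipoq* on 13. *Cd36* and *Lipe* passed on 3 arrays each, and *Zfp423* on 1; these 3 genes had no group in which every array passed and were not tested. The arrays were spread over 2 slides, each holding arrays of all 5 groups. An array is named by its group and the number that opens its label (control 1, 6 and 11; TNFα 4, 9 and 14; TGFß1 2, 7 and 12; IL-1β 5, 10 and 15; IL-6 3, 8 and 13), and values per array follow that order. The labels do not say whether the 3 arrays of a group came from separate cultures. For the control, TNFα and TGFß1 groups, the legend of the paper's microarray figure gives biological replicas from 3 independent experiments. The sources used here say nothing on this for the IL-1β and IL-6 groups. The p-values measure the spread between arrays of all 5 groups, part of which may be technical.

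The 6 fibroblast markers were well above background on all arrays. Their summed level, in units of the 75th percentile signal, was 950 to 1170 in control cells, 640 to 778 with TNFα and 1030 to 1310 with TGFß1. The 5 markers of mature fat cells (*Adipoq*, itself among the 10 genes, *Plin1*, *Cidec*, *Lep* and *Retn*) were also well above background on every control array, so transcripts of fat cell genes were measurable in this fibroblast line. Their summed level was 1.54 to 2.46 in control cells, 1.04 to 1.51 with TGFß1, 0.955 to 1.79 with IL-1β, 0.949 to 1.85 with IL-6 and 0.288 to 0.389 with TNFα, where only *Lep* was well above background on all 3 arrays. Of 6 macrophage markers, *Cd68*, *Csf1r* and *Itgam* were well above background on all 15 arrays and *Adgre1*, *Ptprc* and *Lyz2* on none, and the summed level overlapped between the groups (10.2 to 21.9 in control and 11.9 to 22.8 with TNFα). Endothelial markers other than *Pecam1*, and all 3 muscle markers, were above background nowhere, and of 4 epithelial markers 2 were above background on all TGFß1 arrays and 0 on all arrays of any other group. The part of any change in cell make-up in the results was not tested, and in such bulk RNA fewer cells of a type and less RNA per cell cannot be told apart.

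In MEFs treated by TNFα, all 7 genes tested fell, from the regulator *Pparg* through the fatty acid genes to the adipokines. Called here means a q-value under 0.05 with at least a 1.5-fold change in limma's test over 29334 probes; 10.0% of all probes were called in this comparison, and 5.96% were called lower. The median log2 fold-change of the 7 genes was -2.86, against 0.04 over all probes. In all 7 genes the TNFα arrays lay below every control array. The 2 groups did not overlap, in either direction, in 28.9% of all probes, and the share with TNFα below control was not computed. All 7 were called lower also with slide in the model, where 6.20% of all probes were.

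*Pparg* had levels of 4.53, 4.09 and 4.51 in control cells and of 2.86, 2.49 and 3.06 with TNFα. The highest TNFα array was thus about 1 log2 unit below the lowest control array. The log2 fold-change was -1.57 ± 0.17 (SE, n = 3 per group; q = 7.76e-05), a 2.98-fold fall. *Zfp423*, a zinc-finger regulator that commits cells to the fat lineage, was above background on a single control array (level -1.18, against -7.17 and -6.48 on the other 2), while its second probe read -7.14 on that same array, and it was above background on no array of the treated groups.

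Among the genes that take up and carry fatty acids, *Fabp4*, the fatty acid binding protein of fat cells, had levels of 2.22, 2.31 and 2.49 in control cells and of -0.94, -0.47 and -1.27 with TNFα. The control arrays agreed within 0.3 log2 units, and the treated arrays lay more than 2 units below them. The fall was 9.40-fold (log2 fold-change -3.23 ± 0.36; q = 9.41e-05). *Lpl*, the lipoprotein lipase, fell 7.25-fold, from 5.72, 6.79 and 5.62 to 3.07, 3.42 and 3.06 (log2 fold-change -2.86 ± 0.43; q = 0.00092). The 3 treated arrays were close to each other, whereas control 6 stood a log2 unit above the other 2 control arrays. The other probes of *Fabp4* (1 probe) and *Lpl* (2 probes) gave -3.46, -3.11 and -2.99, all called lower. *Cd36*, a fatty acid transporter, was at -5.12, -4.57 and -3.95 in control cells, 2 of these 3 arrays being well above background, and at -6.98, -6.72 and -6.64 with TNFα, where none was. Measured against the dimmest signal that counted as detected, *Cd36* was at least 1.15-fold lower.

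*Scd1*, the desaturase that makes monounsaturated fatty acids for storage, had levels of 1.56, 1.94 and 1.93 in control cells and 0.56, 1.10 and 0.92 with TNFα. The groups did not overlap, but the gap between their nearest arrays was under 0.5 log2 units. Its log2 fold-change was -0.95 ± 0.23 (q = 0.0187), and it was the one call that ended when a single array was left out: q was 0.059 without control 6, 0.0666 without control 11 and 0.0907 without TNFα 4. *Plin2*, the perilipin that coats lipid droplets in many cell types, was at 4.12, 4.11 and 4.04 in control cells and 3.24, 3.29 and 3.31 with TNFα. The spread within either group was under 0.1 log2 units, the tightest of the 7 genes, and the fall was 1.76-fold (log2 fold-change -0.81 ± 0.16; q = 0.00527). Its second probe gave -0.55 with q = 0.0361, under the fold-change required. *Lipe*, the hormone-sensitive lipase that releases stored fat, was detected on 2 control arrays (-4.04 and -3.76) and on none with TNFα. Its group mean was at least 1.31-fold lower. Without a filter on dim probes this difference was not called (-1.55, q = 0.0663).

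The adipokines had the largest falls on the processed signal, an order lost with normexp background correction, under which *Lpl* (-2.87) and *Fabp4* (-2.81) fell more than *Cfd* (-2.78) and *Adipoq* (-2.19). *Adipoq*, which encodes adiponectin, had levels of -0.82, -0.26 and 0.12 in control cells and -5.39, -4.10 and -4.78 with TNFα. Only 1 of the 3 TNFα arrays was well above background, so the signal there was near the limit of detection. The log2 fold-change was -4.44 ± 0.44 (q = 4.69e-05), a 21.7-fold fall on the processed signal (with normexp q = 0.000134). *Cfd*, which encodes adipsin (complement factor D), fell 10.8-fold, from 0.72, 0.83 and 1.81 to -2.62, -2.21 and -2.10 (log2 fold-change -3.43 ± 0.51; q = 0.00092). It stayed above background on all TNFα arrays, and its second probe gave -3.36.

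**Figure D1:**
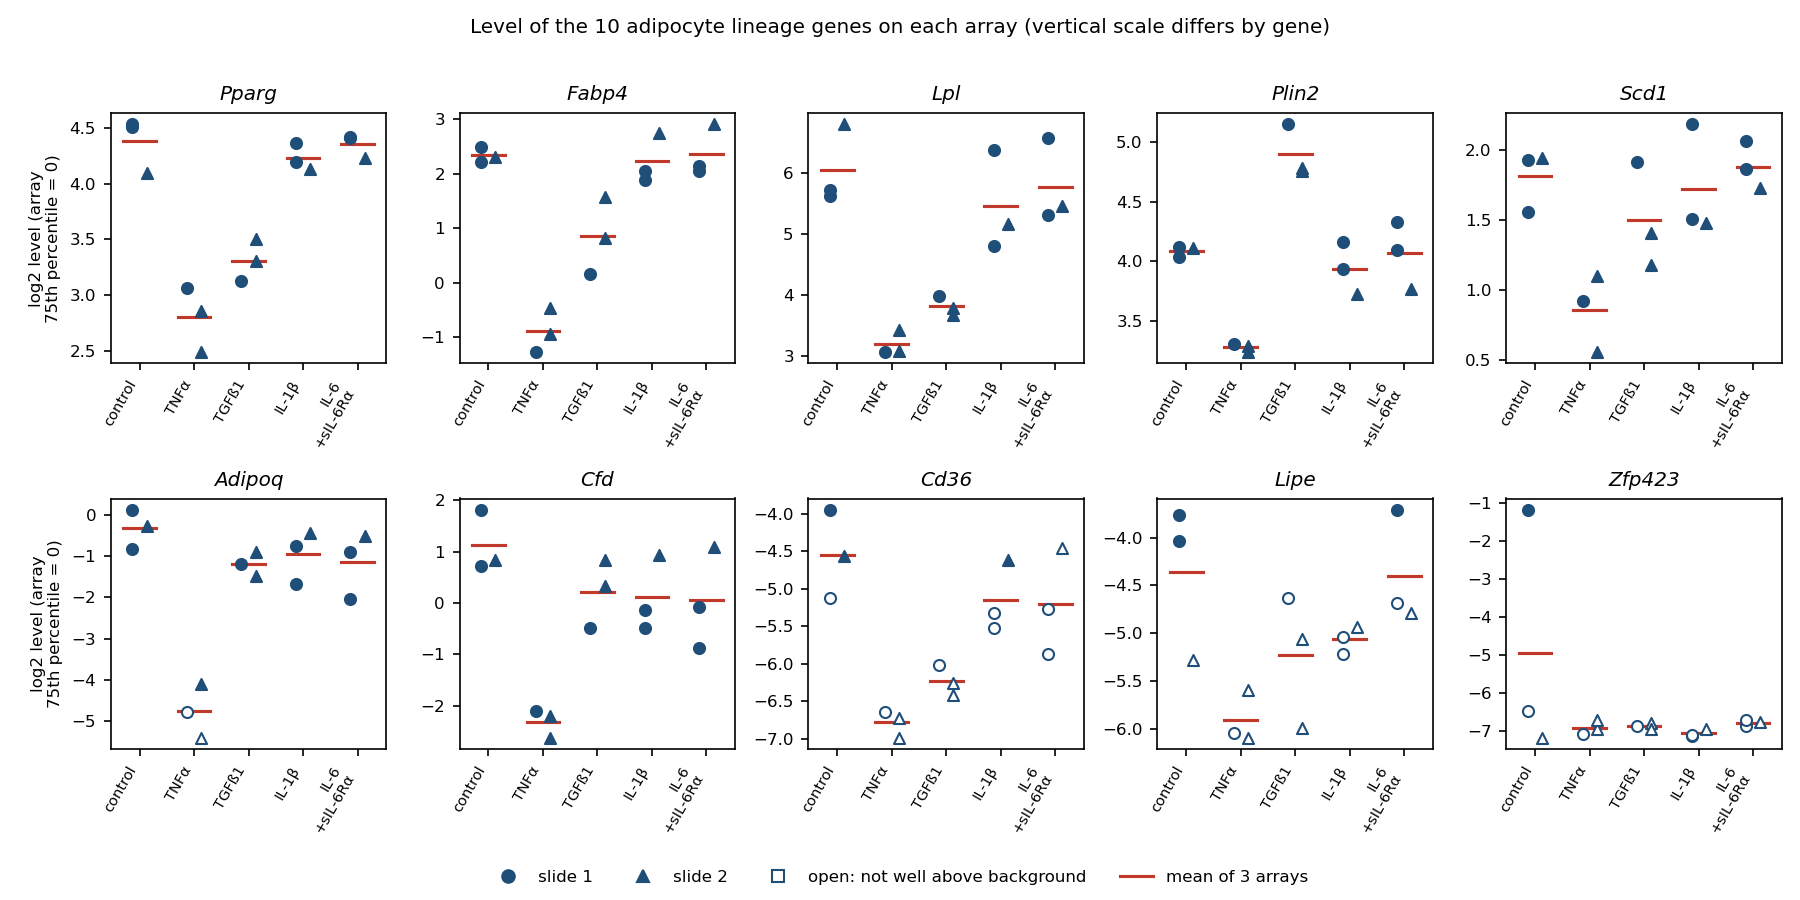
Level of each of the 10 genes on each of the 15 arrays (vertical axis, log2 signal with the 75th percentile of the array at 0; the scale differs by gene) by group (horizontal axis); circles are arrays of slide 1, triangles of slide 2, open symbols were not well above background, and red bars are means of 3 arrays. The TNFα arrays sit below all control arrays in every gene but *Zfp423*, and *Plin2* is highest with TGFß1.

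In MEFs treated by TGFß1, the response split: *Pparg*, *Fabp4* and *Lpl* fell and *Plin2* rose. These were 4 of the 7 genes tested, in a comparison where 17.9% of all probes were called, 10.4% lower and 7.51% higher. The median log2 fold-change of the 7 genes was -0.90, against 0.07 over all probes, and 5 of them had TGFß1 arrays that did not overlap the control arrays (38.8% of all probes).

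*Pparg* was at 3.31, 3.13 and 3.50 with TGFß1, below all control arrays and 2.09-fold lower on average (log2 fold-change -1.06 ± 0.17; q = 0.000783). *Lpl* was at 3.66, 3.98 and 3.78, a 4.71-fold fall (-2.24 ± 0.43; q = 0.0027) with the treated arrays again close together. *Fabp4* was at 0.82, 0.17 and 1.58, 2.80-fold lower (-1.48 ± 0.36; q = 0.0099), and here the treated arrays spread over more than a log2 unit. The other probes of *Fabp4* and *Lpl* were called lower as well (-1.66, -2.31 and -2.41).

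*Plin2* went the other way, to 4.76, 5.15 and 4.78 with TGFß1, above every array of the other 4 groups. The rise was 1.76-fold (log2 fold-change 0.81 ± 0.16; q = 0.00309), and the second probe rose by 0.68 (q = 0.00716). *Scd1* was at 1.18, 1.91 and 1.41, which overlapped with control cells (-0.31 ± 0.23; q = 0.371).

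*Adipoq*, at -1.48, -1.18 and -0.89, lay below all control arrays, yet its difference of -0.86 ± 0.44 did not pass (q = 0.178). *Cfd*, at 0.32, -0.48 and 0.83, overlapped with them (-0.90 ± 0.51; q = 0.231). Both were called lower in a fit with the runs of label numbers as a block (q = 0.0144 and 0.0431). *Cfd* was highest on the array of the last run in every group, including control (1.81) and TNFα (-2.10). *Adipoq* was so in every group but TNFα. Over all pairs of arrays of 1 run, deviations from the group means had a median correlation of -0.10. For *Cfd* the difference was -1.75 within slide 1 and -0.25 within slide 2, and for *Adipoq* it was -0.83 and -0.93. Within a slide no TGFß1 array shared its run with a control array, so slide and run cannot be told apart here. *Cd36* and *Lipe* were above background on no TGFß1 array and on 2 of 3 control arrays. Their group means were at least 1.14-fold and 1.28-fold lower than in control cells. For *Lipe* the TGFß1 arrays (-5.06, -4.63 and -5.99) overlapped with the control arrays (-4.04, -5.28 and -3.76). Without a filter on dim probes the *Lipe* difference was not called (-0.87, q = 0.289).

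**Figure D2:**
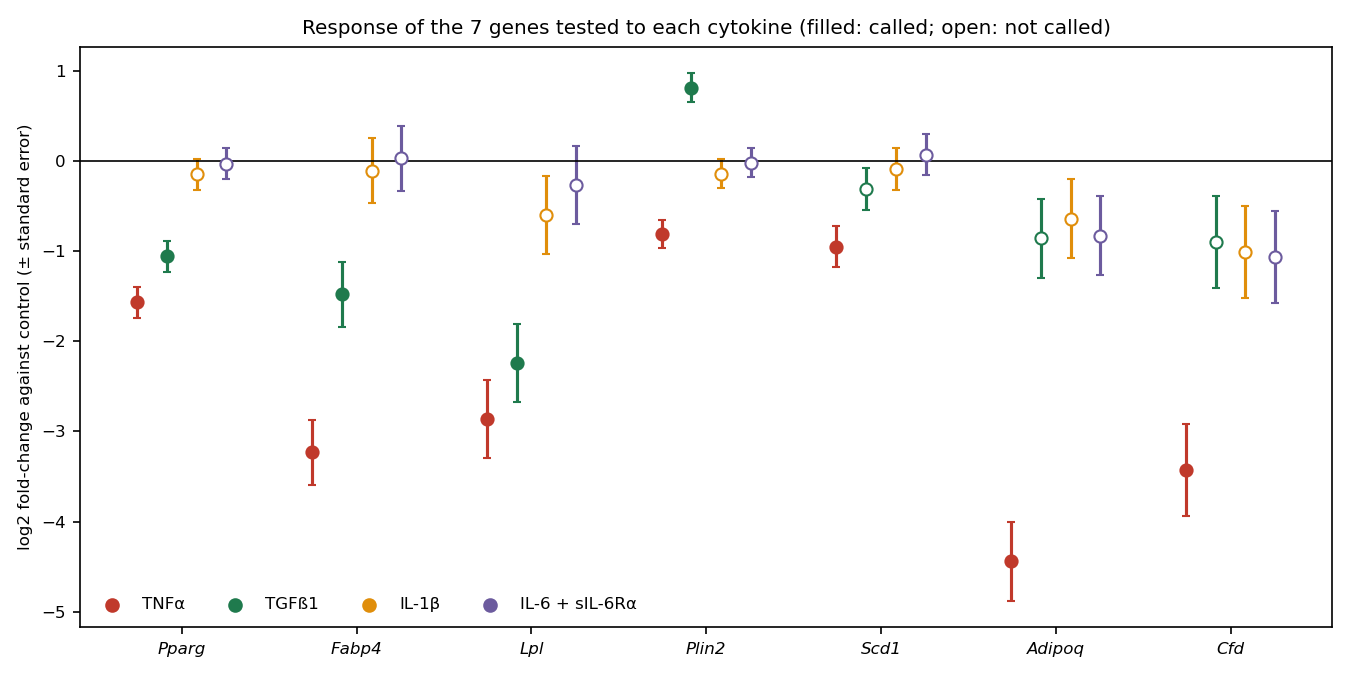
Log2 fold-change against control (vertical axis; points with standard-error bars, n = 3 arrays per group) of the 7 genes tested (horizontal axis) for each cytokine; filled points were called, open points were not. All 7 TNFα points lie below 0, *Plin2* rises with TGFß1 (0.81), and no IL-1β or IL-6 point was called.

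Direct comparison of the TNFα and TGFß1 groups placed 4 of the 7 genes lower with TNFα, where 11.8% of all probes were called and 5.17% were lower with TNFα. *Adipoq* differed by -3.57 ± 0.44 (q = 0.000123), a size that rests on a TNFα group with 1 of 3 arrays above background and was -1.52 with normexp (q = 0.00143). *Cfd* differed by -2.53 ± 0.51 (q = 0.00466). *Fabp4* differed by -1.75 ± 0.36 (q = 0.00478) and *Plin2* by -1.62 ± 0.16 (q = 1.95e-05). The called genes were thus the 2 adipokines, the binding protein and the droplet protein. The difference did not pass for *Pparg* (-0.51 ± 0.17; q = 0.0602), *Lpl* (-0.62 ± 0.43; q = 0.409) or *Scd1* (-0.64 ± 0.23; q = 0.0907), all 3 lower with TNFα on average. In all 7 genes the TNFα arrays lay below every TGFß1 array, and the share of all probes so separated was not computed. With slide in the model *Pparg* had q = 0.0271 but stayed under the fold-change required. *Scd1* was called with slide as a random block (q = 0.0487).

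With IL-1β and with IL-6 plus sIL-6Rα, none of the 7 genes was called against control. In these comparisons 0.232% and 0.0580% of all probes were called, and 5.33% and 5.05% had groups that did not overlap, against 0 of the 7 genes. In limma's test, 0 of the 7 had an unadjusted p under 0.05 with either cytokine, and 1 of 7 did with slide in the model. The share of all probes under that unadjusted p was not computed. *Pparg* was at 4.36, 4.19 and 4.13 with IL-1β and 4.42, 4.41 and 4.23 with IL-6, which lay inside the range of the control arrays. *Fabp4* (-0.11 ± 0.36 and 0.03 ± 0.36), *Plin2* (-0.14 ± 0.16 and -0.02 ± 0.16) and *Scd1* (-0.09 ± 0.23 and 0.07 ± 0.23) had differences smaller than their standard errors. *Lpl* was at 4.80, 6.37 and 5.16 with IL-1β and 5.30, 6.57 and 5.45 with IL-6, an overlap with control cells on both counts. Its differences of -0.60 and -0.27 were -0.08 and 0.26 within slide 1 and -1.62 and -1.34 within slide 2, where control 6 was the one control array. The arrays of the same run of label numbers as control 6, IL-1β 10 and IL-6 8, were on slide 1. They were the highest of their groups too.

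The adipokines had the lowest means of the 7 genes relative to control. *Cfd* was at -0.48, -0.13 and 0.94 with IL-1β (-1.01 ± 0.51) and at -0.87, -0.08 and 1.09 with IL-6 (-1.07 ± 0.51). Within slide 1 these differences were -1.57 and -1.74, and within slide 2 they were 0.11 and 0.26, each from 1 control array there. That array, control 6, is of another run of label numbers than IL-1β 15 and IL-6 13, so slide and run cannot be told apart here. *Adipoq* was at -1.67, -0.75 and -0.45 with IL-1β (-0.64 ± 0.44) and at -2.03, -0.91 and -0.52 with IL-6 (-0.83 ± 0.44). Every one of these groups overlapped with the control arrays, yet each array lay below the control array of its own run of label numbers. With run and slide in the model, *Cfd* had q = 0.0615 with IL-1β and 0.0605 with IL-6, and *Adipoq* 0.16 and 0.0834. The second probe of *Cfd* was then called lower with IL-6 (-1.09; q = 0.0382) and not with IL-1β (-0.91; q = 0.0575). *Cd36* was above background on 1 IL-1β array and no IL-6 array, and *Lipe* on no IL-1β array and 1 IL-6 array.

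The difference from TNFα was itself large. Against TNFα, *Adipoq* was higher by 3.80 ± 0.44 with IL-1β (q = 0.000346) and by 3.61 ± 0.44 with IL-6 (q = 0.000199), and *Fabp4* by 3.13 ± 0.36 (q = 0.000306) and 3.26 ± 0.36 (q = 8.73e-05). *Cfd*, *Lpl*, *Pparg* and *Plin2* were called higher in both contrasts too. Of all probes, 4.69% (IL-1β) and 8.59% (IL-6) were called against TNFα, and 3.01% and 5.14% were called higher. *Scd1* was called higher with IL-6 (1.02 ± 0.23; q = 0.0141) and just missed with IL-1β (0.86 ± 0.23; q = 0.0513, or 0.0467 and called with slide in the model). Against TGFß1, *Pparg*, *Fabp4* and *Lpl* were higher and *Plin2* lower with either cytokine (*Plin2* by -0.96 and -0.83; q = 0.00116 and 0.00288), while *Scd1*, *Adipoq* and *Cfd* were not called. Of all probes, 16.9% and 16.3% were called against TGFß1, with 10.2% and 9.69% higher and 6.68% and 6.57% lower. Between IL-1β and IL-6, 0 of the 7 genes were called in limma's test, and 0.399% of all probes were. An unadjusted p under 0.05 in that test was found for 0 of the 7, and the share of all probes at that p was not computed.

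**Figure D3:**
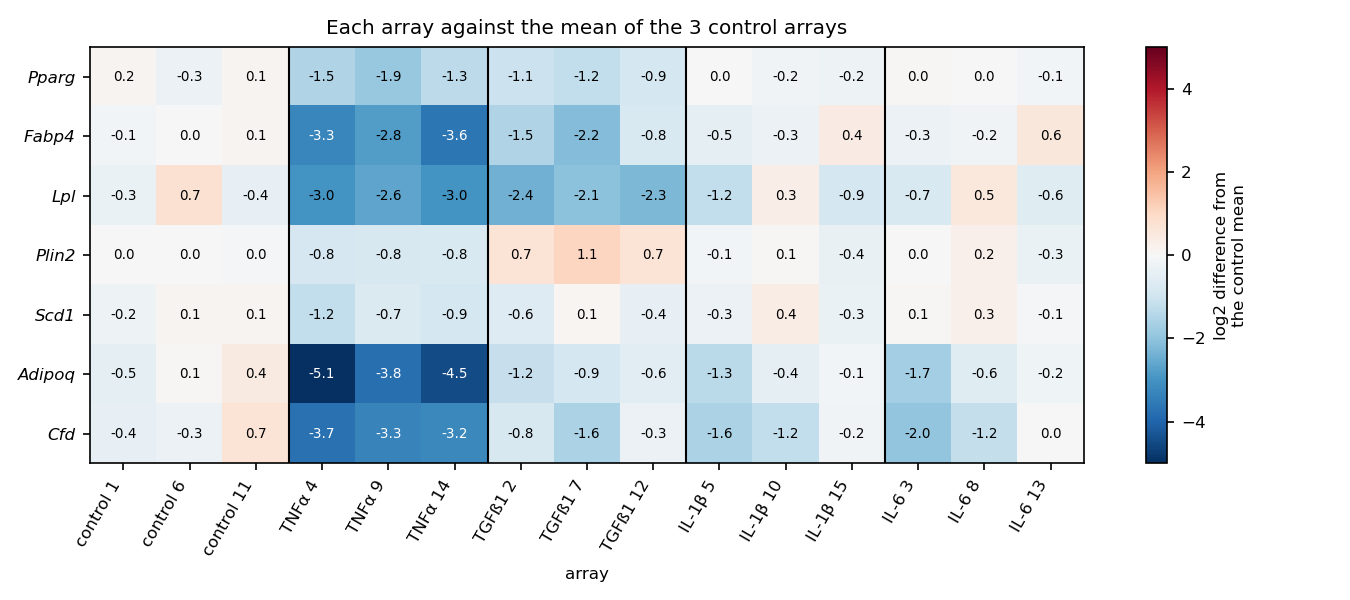
Difference of each array from the mean of the 3 control arrays (colour and printed value, log2 units) for the 7 genes tested (rows) on the 15 arrays (columns, named by group and by the number that opens the label). The 3 TNFα columns are below 0 in every row, from -5.1 to -0.7, and the *Plin2* row turns positive with TGFß1.

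Ranked by mean level over the 5 groups (each mean ± SD of 3 arrays), TNFα was lowest for all 7 genes. *Pparg* ran from 4.38 ± 0.25 in control cells through 4.35 ± 0.11 with IL-6, 4.23 ± 0.12 with IL-1β and 3.31 ± 0.19 with TGFß1 to 2.80 ± 0.29 with TNFα. *Lpl* had the same order, at 6.04 ± 0.65, 5.77 ± 0.70, 5.45 ± 0.82, 3.81 ± 0.16 and 3.19 ± 0.20. In both genes the step with a called difference lay between IL-1β and TGFß1, and no neighbours on either side of it differed by a called amount.

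*Fabp4* ran from 2.37 ± 0.47 with IL-6, 2.34 ± 0.14 in control cells and 2.23 ± 0.47 with IL-1β to 0.86 ± 0.71 with TGFß1 and -0.89 ± 0.40 with TNFα, with called steps between the last 3 groups. *Plin2* was the one gene not highest in control, IL-1β or IL-6 cells, at 4.90 ± 0.22 with TGFß1, 4.09 ± 0.04 in control cells, 4.07 ± 0.28 with IL-6, 3.94 ± 0.22 with IL-1β and 3.28 ± 0.04 with TNFα. Its first and last steps were called. For *Adipoq*, at -0.32 ± 0.47 in control cells, -0.96 ± 0.64 with IL-1β, -1.15 ± 0.78 with IL-6, -1.18 ± 0.30 with TGFß1 and -4.76 ± 0.64 with TNFα, the last step alone was called. *Cfd* shared that pattern (1.12 ± 0.60 in control cells, 0.22 ± 0.66 with TGFß1, 0.11 ± 0.74 with IL-1β, 0.05 ± 0.98 with IL-6 and -2.31 ± 0.27 with TNFα). *Scd1* had no called step between neighbours, at 1.88 ± 0.17 with IL-6, 1.81 ± 0.22 in control cells, 1.72 ± 0.39 with IL-1β, 1.5 ± 0.38 with TGFß1 and 0.86 ± 0.28 with TNFα.

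Across the 15 arrays, with the slide difference taken out, *Pparg* and *Fabp4* moved most alike of the 7 genes (r = 0.963, as a description, since arrays of 1 group are not independent points), followed by *Adipoq* and *Cfd* (r = 0.956). *Plin2* had r = 0.114 to *Pparg*, 0.127 to *Lpl*, 0.265 to *Fabp4*, 0.484 to *Scd1*, 0.493 to *Cfd* and 0.583 to *Adipoq*. Of 12185 genes searched, those most like *Pparg* were *Plin4* (r = 0.967), *Ppl* (0.966) and *Fabp4*. Those most like *Fabp4* were *Lgr4* (0.982), *Plin4* (0.981) and *Dhrs3* (0.974). *Lpl* was most like *Apba1* and *Tcf4* (both 0.986), and *Plin2* most like *Magi1* (0.994) and *Fam160b1* (0.977). *Scd1* was most like *Gabarap* (0.966), and *Cfd* like *Cd248* (0.951) and *Acaa2* (0.949).

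Among other genes of fat cell formation and fat storage, the genes called with TNFα were lower. Of 61 such genes on 9 lists, 49 could be tested, and 19 were called lower and 0 higher with TNFα. Their median log2 fold-change was -0.51. At an unadjusted p under 0.05 in limma's test, 4 of the 49 were higher, and the share of all probes at that p was not computed. Over all probes 5.96% were called lower with TNFα and the median was 0.04, the background for the counts by list that follow. Lipid droplet proteins held the deepest falls, with 4 of 7 called lower. *Plin4*, a perilipin of fat cells, went from 2.67, 2.54 and 2.47 to -2.95, -2.51 and -2.31, the largest fall among the 49 (log2 fold-change -5.15 ± 0.25; q = 1.97e-07). *Cidec*, which fuses lipid droplets, was above background on no TNFα array and, on the processed signal, at least 14.3-fold lower (q = 3.63e-07). *Retn*, the adipokine resistin, was at least 7.47-fold lower (q = 0.00012), likewise from no detected TNFα array. With normexp background correction the log2 fold-changes of *Cidec* and *Retn* were -1.87 and -1.25, still called. These falls are smaller than the 2 bounds, which hold on the processed signal alone.

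Regulators also fell with TNFα, 4 of the 10 tested. *Cebpa*, which encodes C/EBPα, the partner of PPARγ, fell by 1.81 ± 0.31 (q = 0.00241), and *Cebpd* by 1.44 ± 0.21 (q = 0.000794); *Nr1h3* and *Rxra*, which encode nuclear receptors, fell by 1.51 and 0.81. Among the inhibitors of fat cell formation 4 of 8 fell, *Dlk1*, *Gata2*, *Wnt10b* and *Nr2f2* (log2 fold-changes from -1.30 to -0.82), so genes named for opposite roles were lower together. Triglyceride synthesis had 4 of 7 lower, *Gpd1*, *Acsl1*, *Lpin1* and *Agpat2*. Of the other adipokines 2 of 4 were lower (*Retn* and *Apln*), and of the progenitor markers 1 of 6 (*Ly6a*, -2.01). Lipid and glucose uptake had 0 of 5, and lipolysis 0 of 2; the thermogenic genes *Ucp1*, *Prdm16* and *Ppargc1a* were above background on no array. The genes of this paragraph other than *Retn* were picked out after their values were seen.

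With TGFß1, 22 of the 49 were called lower and 3 higher, with a median of -0.74. Over all probes 10.4% were called lower and 7.51% higher, with a median of 0.07, and the counts of 0 or 1 gene in the shorter lists are not far from these shares. The deepest falls were in progenitor markers, where 4 of 6 were lower. Regulators had 6 of 10 lower, inhibitors 4 of 8, lipid droplet proteins 3 of 7, triglyceride synthesis 3 of 7, lipid and glucose uptake 1 of 5, the other adipokines 1 of 4 and lipolysis 0 of 2. *Cd34*, a surface antigen of progenitor cells, went from 0.70, 1.82 and 0.71 to -2.69, -3.50 and -2.94 (log2 fold-change -4.12 ± 0.48; q = 9.77e-05), and *Ly6a*, the stem cell antigen Sca-1, fell by 3.77 ± 0.47 (q = 0.000166). *Plin4* fell by 3.12 ± 0.25 (q = 7.58e-06), less than with TNFα (difference between the cytokines -2.03 ± 0.25; q = 0.000137). The 3 that rose were *Fabp5*, a fatty acid binding protein of wide expression (1.21 ± 0.24; q = 0.00346), *Ppard*, a receptor related to PPARγ (0.89 ± 0.13; q = 0.000531), and *Pdgfrb*, a receptor of mesenchymal cells (0.68 ± 0.14; q = 0.00421; 0.53 after quantile normalization, under the fold-change required).

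**Figure D4:**
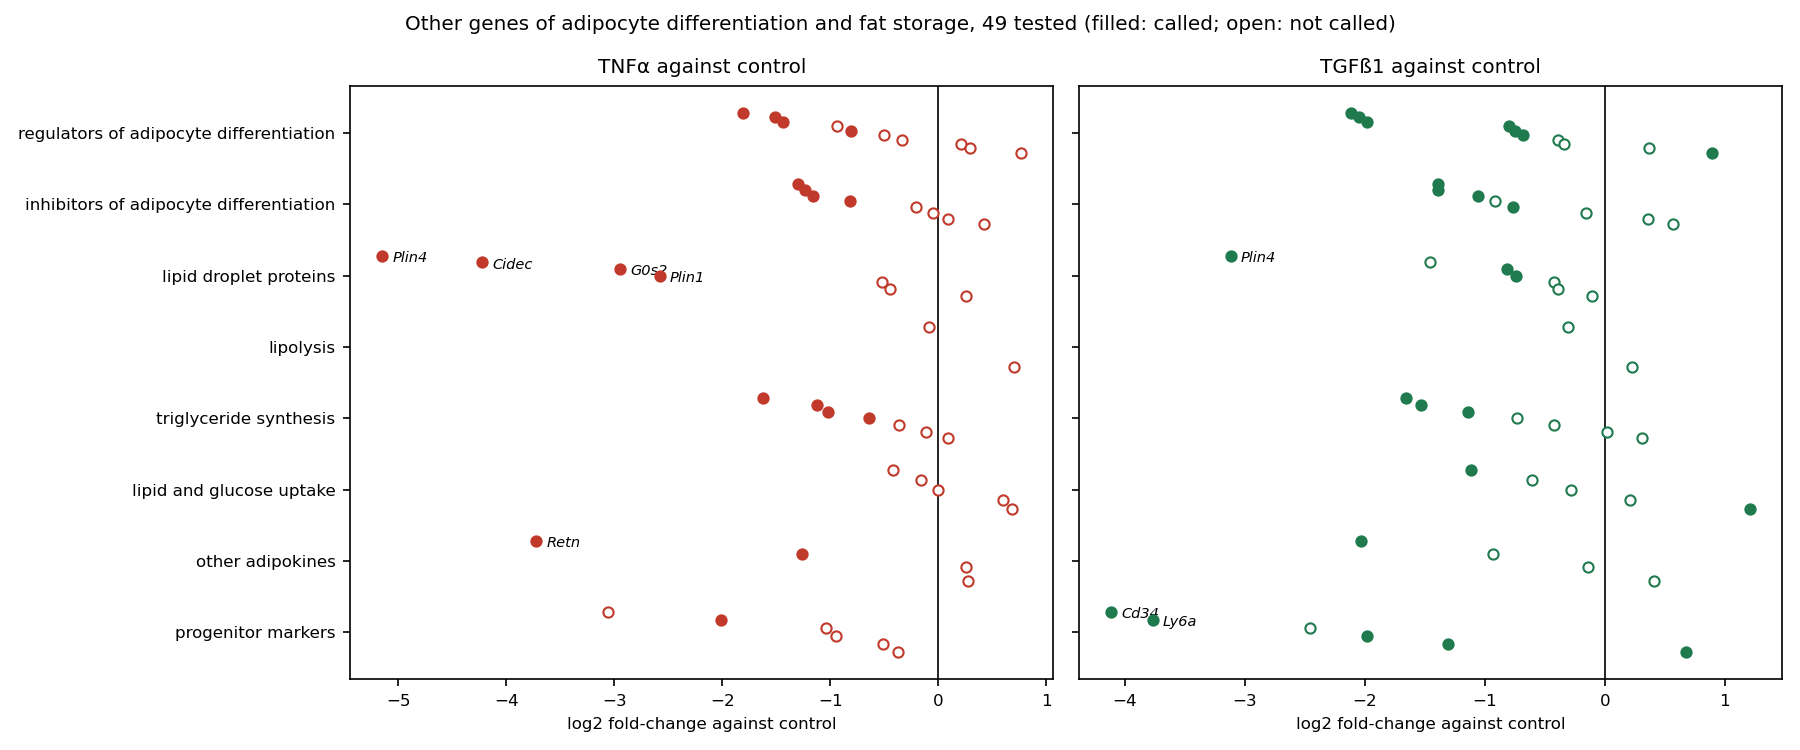
Log2 fold-change against control (horizontal axis) of the 49 other adipocyte genes tested, by list (vertical axis; the spread within a row only separates points), for TNFα (left) and TGFß1 (right); filled points were called. The lowest points are *Plin4*, *Cidec* and *Retn* with TNFα and *Cd34* and *Ly6a* with TGFß1.

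*Cebpd*, which encodes an early C/EBP factor of fat cell formation, was the only one of the 49 called with IL-1β or IL-6. It was at 2.62, 3.06 and 3.11 in control cells, at 4.01, 4.43 and 4.62 with IL-1β and at 4.31, 4.95 and 4.65 with IL-6. Every treated array lay above every control array, with log2 fold-changes of 1.43 ± 0.21 (q = 0.0129) and 1.71 ± 0.21 (q = 0.00949). The IL-1β call ended without control 1 (q = 0.0714), IL-1β 10 (q = 0.0686) or IL-1β 15 (q = 0.0689), and the IL-6 call without control 1 (q = 0.058), control 6 (q = 0.0567) or IL-6 8 (q = 0.0661). With TNFα it was at 1.32, 1.57 and 1.57, and with TGFß1 at 1.89, 2.09 and 2.40, below all control arrays. The difference between IL-1β and TNFα was 2.87 ± 0.21 (q = 1.1e-05), and between IL-6 and TNFα 3.15 ± 0.21 (q = 2.12e-06). In the other direction 0 of the 49 were called with either cytokine. At an unadjusted p under 0.05 in limma's test, 4 of the 49 were lower and 4 were higher with each. The share of all probes at that p was not computed.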

How the data were processed

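Total RNA was measured in 15 samples on 1-colour (Cy3) Agilent mouse arrays. The authors extracted spot intensities with Agilent Feature Extraction 10.7.3.1, per the labels; the deposited intensity used here is the processed signal, background-subtracted by that software, and the deposited value table holds the same signals (largest difference 0). The array design names build mm9. From the deposited intensities, control spots and spots marked as outliers were left out, spots of 1 probe were averaged, and log2 levels were centred on the 75th percentile of each array. A probe was tested where it was well above background (at least 0.5 of its spots) on all arrays of at least 1 group, which left 29334 of 56605 probes. The number of arrays limits the precision.

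Groups were compared with limma 3.58.1 in R 4.3.3 (lmFit and eBayes on 15 arrays, no covariate, as the methods name none), with Benjamini-Hochberg q-values over all tested probes and a 1.5-fold threshold. The fit was also run on simulated data with independent noise per array, for probes well above background on all 15 arrays. Only the TNFα group was shifted there. Slide differences and signals near background were not covered by that simulation. Slide was tried as a fixed term and as a random block. Where a group had no detected array, a bound on the fold was computed against the dimmest detected signal of each array. That signal lay between -5.11 and -4.35 on the log2 scale. Such bounds hold on the processed signal and not under another background correction. Genes of the other lists were named by the rule of up to 3 called rises and 3 called falls with the largest change and no overlap. Likeness was Pearson's r over 15 arrays. The 10 genes and all lists were chosen with earlier results of these data known.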

Additional observations from a re-analysis of the deposited data

How the results depend on the processing

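Beside the settings reported, 11 alternatives that keep all arrays were run for the 7 genes tested (10 for *Adipoq*, which was not well above background on all 15 arrays). With TNFα all 7 stayed lower and called under each of them, and with TGFß1 *Pparg*, *Fabp4*, *Lpl* and *Plin2* kept their direction and call. Without a filter on dim probes, *Cd36* was called lower as well (-2.24 with TNFα, q = 0.00391, and -1.68 with TGFß1, q = 0.0127). In that setting *Lipe* (q = 0.0663 with TNFα and 0.289 with TGFß1) and *Zfp423* (q = 0.487 and 0.383) were not called. The normexp alternative used the median signal, because the scanner output used here held no mean signal. It and the alternatives for the other adipocyte genes were added after the data were seen. The labels give the groups no shared replicate number, but each stretch of 5 label numbers (from 1, 6 and 11), called a run here, covers every group once. Over the 30 pairs of arrays of 1 run, the correlation of their deviations from the group means had a median of -0.10 (range -0.60 to 0.83). In single genes, picked out after their values were seen, the highest array of every group was of the same run. *Lpl* was highest in every group on the array of the run from 6, and *Cfd* on that of the run from 11. The median and range cannot decide whether the runs pair the arrays, because the pairs differ so widely. The run was left out of the main fit and tried as an alternative. With the run as a replicate block, *Adipoq* and *Cfd* were called lower with TGFß1 (-0.86, q = 0.0144, and -0.90, q = 0.0431; with slide too, -0.95 and -1.04), and no other call of the 7 against control changed. Between TNFα and TGFß1, *Scd1* was then called too (-0.64, q = 0.00834). *Fabp5* was called higher with TNFα (0.60, q = 0.0103), as was *Klf5* with slide in the model too (0.91, q = 0.00206), both named after their values were seen.

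The number of all probes called moved by over 1.5 times in these cases: TGFß1, 3472 with normexp; IL-1β and IL-6, 106 and 37 with slide in the model, 117 and 38 with slide as a random block, 157 and 61 with the replicate block, 323 and 231 with the replicate block and slide, and 20 and 0 with only the 2 groups compared; TNFα, 4522 with the replicate block and slide; and IL-6, 9 without a filter. Of the other adipocyte genes, 3 were called with IL-1β under the replicate block and slide, and 0 with IL-1β and 0 with IL-6 when only the 2 groups were compared.

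Leaving out 1 array at a time, 6 to 8 of the 10 genes were called with TNFα, 4 to 5 with TGFß1, 0 with IL-1β, 0 with IL-6 and 4 to 5 between TNFα and TGFß1. The lowest count came without control 11 or TNFα 4, where *Scd1* was lost, and the highest without control 1, where *Cd36* was gained (-2.53, q = 0.00157). All probes called ranged from 1847 (without TNFα 4) to 2642 with TNFα, 3986 to 5384 with TGFß1, 40 to 55 with IL-1β and 4 to 18 with IL-6; the other adipocyte genes called ranged from 14 to 20, 21 to 26, 0 to 1 and 0 to 1. The cause of these shifts was not tested. *Lipe* was called lower without control 6 with TNFα (-2.01) and with TGFß1 (-1.33). Uncalled differences near 0 changed sign. With IL-6, *Pparg* ranged from -0.17 to 0.05 (without control 1) and was 0.04 without control 11 or without IL-6 13. *Fabp4* ranged from -0.24 (without IL-6 13) to 0.19 and was -0.03 without control 1, and *Scd1* ranged from -0.05 (without control 1) to 0.15 and was -0.02 without IL-6 8. *Lpl* ranged from -0.67 to 0.10 (without control 6) and *Plin2* from -0.15 to 0.13 (without IL-6 13). With IL-1β, *Fabp4* ranged from -0.37 to 0.07 (without IL-1β 5) and *Scd1* from -0.31 to 0.04 (without IL-1β 15), with 0.02 without IL-1β 5. Signals near background limit *Cd36*, *Lipe*, *Zfp423* and *Adipoq* with TNFα, whose size depends on the background correction.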
